A study of Mus musculus with 25 samples.

Results

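The sterol and fatty acid synthesis genes examined here were 36 named mouse genes, all 36 of which were found among the 18668 genes of the hepatocyte count table, and all 36 passed the filter on low counts, which left 14339 genes for testing. They were found by gene symbol from a list of names. They comprised 15 enzymes of sterol synthesis, 4 genes of sterol sensing and transport, 6 enzymes of fatty acid synthesis, 5 elongases and desaturases, 3 regulators of lipogenesis and 3 genes of glycerolipid metabolism.

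Bulk RNA sequencing was done on hepatocytes, which carry out most of the liver's metabolism, sorted from perfused livers of mice of the strain C57BL/6J 129SV, with 13 libraries in 5 groups. The IL6 group (n = 3) came from WT mice that had received an IL6 plasmid 1 week earlier by HTVi, a hydrodynamic injection into the tail vein that drives plasmid DNA into liver cells. The IL6 STAT3KO group (n = 3) came from Stat3_floxed mice that received AAV-TBG-Cre 2 weeks, and the IL6 plasmid 1 week, before. The DDC group (n = 2) came from Stat3_floxed mice given AAV-TBG-GFP for 2 weeks and a DDC diet for 1 week, and the DDC STAT3KO group (n = 3) from Stat3_floxed mice given AAV-TBG-Cre for 2 weeks and the DDC diet for 1 week. The GFP group (n = 2) came from WT mice 1 week after hydrodynamic injection of a GFP plasmid. AAV-TBG vectors express their cargo from a hepatocyte promoter, so Cre acts mainly in hepatocytes, and DDC is a feed additive that disturbs haem synthesis and causes bile duct injury. Only the DDC and DDC STAT3KO groups differed in the cargo of the virus alone. The IL6 STAT3KO and IL6 groups differed in genotype and in the virus together, and the IL6 STAT3KO and GFP groups in genotype, virus and plasmid together. Both DDC groups differed from the GFP group and from the IL6 group in genotype, virus, injection and diet together. The effects of differences that came together cannot be told apart. The labels give no ages and do not say that replicates were separate animals, so the spread behind each p-value may be technical in part.

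Cells make cholesterol from acetyl-CoA through mevalonate, squalene and lanosterol. SREBP-2, the product of Srebf2, drives the enzymes of this route when sterols in the endoplasmic reticulum are low, and the Insig proteins hold it back when sterols are high. Fatty acids are made from citrate through acetyl-CoA carboxylase and fatty acid synthase, and in liver this route is known to be driven by SREBP-1c, from Srebf1, and by ChREBP, from Mlxipl, which respond to insulin and sugars. STAT3 is the transcription factor that IL-6 activates through its receptor, and hepatocytes answer it with the acute phase response.

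Libraries held between 13625040 and 18428988 counts, and replicates correlated at Pearson's r between 0.937 and 0.983 across genes. Levels are given as CPM, counts scaled to a common library size, with library sizes adjusted by TMM, a method that assumes most genes do not change. Stat3, the deleted gene, stood at 115.8, 96.0 and 115.7 CPM in IL6 STAT3KO hepatocytes, against 339.7, 351.1 and 423.9 CPM in IL6 hepatocytes, and at 62.1, 56.3 and 87.3 CPM in DDC STAT3KO hepatocytes, against 150.1 and 112.0 CPM in DDC hepatocytes. GFP hepatocytes had 108.6 and 98.9 CPM, which the IL6 STAT3KO libraries overlapped (log2 fold change 0.07 ± 0.23, edgeR adjusted p = 0.903) and the DDC STAT3KO libraries did not (-0.60 ± 0.22, 0.0883). Each STAT3KO group was below its own comparison group without overlap, a difference that edgeR called between IL6 STAT3KO and IL6 (-1.77 ± 0.21, adjusted p = 0.0001) and not between DDC STAT3KO and DDC hepatocytes (-0.94 ± 0.22, 0.853), and a count over the whole gene includes exons outside the deleted stretch. Il6 itself differed within and between groups: it had 4.90, 3.21 and 350.9 CPM in IL6 libraries and 0.743, 0.559 and 1.05 CPM in IL6 STAT3KO libraries, so the loss of STAT3 and the lower Il6 level cannot be told apart. Socs3, a direct target of STAT3, had 6.69, 4.54 and 3.97 CPM in IL6 STAT3KO libraries, against 270.2, 292.1 and 215.8 CPM in IL6 libraries. IL6 replicate 3 stood apart in other ways: it held an EGFP transgene at 486.3 CPM, against 9.24 and 5.73 CPM in the other IL6 libraries, 1186 and 1229 CPM in DDC libraries, whose mice received AAV-TBG-GFP, and 2.18 and 2.41 CPM in GFP libraries. The summed level of 14 hepatocyte markers was 23325 CPM in IL6 replicate 3, against 113723 and 54810 CPM in IL6 replicates 1 and 2. The calls and medians of the members that use it, and the calls in neighbouring genes, are therefore also given without it. All 14 hepatocyte markers were detected in every group, with sums from 82373 to 168306 CPM in the 4 other groups.

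Levels of different members were compared per kilobase of exon. In IL6 hepatocytes Hmgcs1, the HMG-CoA synthase at the start of the mevalonate route, led at 82.9 ± 45 CPM per kilobase, and Insig2 followed at 69.6 ± 10.4 CPM per kilobase (SD, n = 3), with overlapping ranges. By the group means Scd1, the main stearoyl-CoA desaturase, led in IL6 STAT3KO, DDC and DDC STAT3KO hepatocytes, at 506 ± 248, 371 ± 483 and 775 ± 421 CPM per kilobase. In DDC hepatocytes this mean joined libraries at 713 and 29.8 CPM per kilobase, and the second was below both DDC libraries of Dgat2, at 105 to 130 CPM per kilobase. In GFP hepatocytes the leading members were Scd1 at 452 ± 43.4 CPM per kilobase, Thrsp, a small lipogenic protein also called Spot 14, at 408 ± 188 CPM per kilobase, and Dgat2, which adds the last fatty acid of triglyceride, at 243 ± 21.4 CPM per kilobase (SD, n = 2). The GFP libraries of Scd1 and Thrsp overlapped, at 421 to 482 and 276 to 541 CPM per kilobase. The lowest members per length were Pnpla3, a lipase-like protein of lipid droplets, and Fdps, the farnesyl diphosphate synthase, in IL6, IL6 STAT3KO, DDC STAT3KO and GFP hepatocytes. Fdps has 5 other annotated genes whose transcripts match it over at least 300 bases at 95% identity or more, and its lowest library held 24 reads, so its values are uncertain. Acaca, Elovl6, Fdft1, Hmgcs1, Idi1 and Me1 also match other annotated genes in this way, and Fdft1 shares 774 exon bases with Ctsb on the opposite strand. Whether the reads were counted by strand is not given in the sources used here, so reads of such pairs may not be separated.

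**Figure D1:**
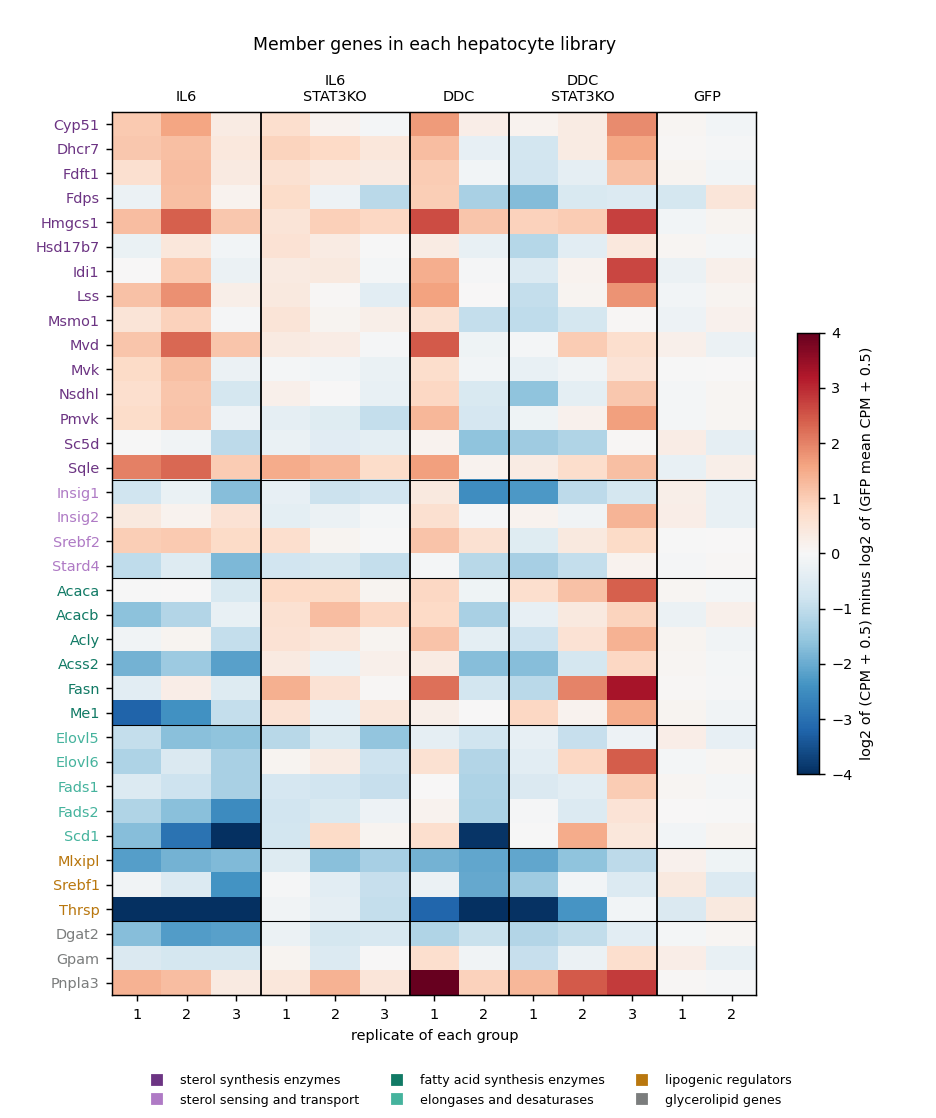
Colour shows, for each of the 36 members (rows, coloured by role) in each of the 13 libraries (columns), log2 of CPM plus 0.5 minus log2 of the mean CPM of GFP hepatocytes plus 0.5, with colours saturating at 4 and -4. In IL6 hepatocytes all 3 columns are mostly blue for the lipogenic genes. For the sterol enzymes the IL6 columns are mostly red except that of replicate 3, which is part red and part blue. In the DDC and DDC STAT3KO groups whole columns differ between replicates.

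Promoter windows were available for 29 of the 36 members, in 39 entries of RefSeq (GRCm38.p6), each 300 bases long, from 250 bases before to 50 bases after a start site. No window was available for Scd1, Fdps, Fdft1, Sqle, Stard4, Fads1 or Dgat2, so the shares given here do not cover these members. Both strands were searched for a sterol regulatory element written as TCACNCCAC, for the STAT site TTCNNNGAA, for an E-box and for the CCAAT box, which is named by its letters, where N is any base. The E-box was written as CACGTG. The sterol element was in 2 of the 39 member windows (5.13%), against 1.24% of all 32851 promoter windows. The CCAAT box was in 27 (69.2%, against 37.4% of all windows), the E-box in 6 (15.4%, against 7.15%) and the STAT site in 0 (against 8.3%). These are matches of letters in short windows and do not show binding. Shown here are the windows of Hmgcs1, which holds the sterol element, and of Mlxipl and Thrsp, whose levels differed from GFP hepatocytes in both the IL6 and the DDC group, with capitals marking each match to any of the 4 motifs, 5′ to 3′ on the strand of the gene. They lie at chr13:119690101-119690400 (plus strand), chr5:135089640-135089939 (plus strand) and chr7:97417501-97417800 (minus strand).
Hmgcs1: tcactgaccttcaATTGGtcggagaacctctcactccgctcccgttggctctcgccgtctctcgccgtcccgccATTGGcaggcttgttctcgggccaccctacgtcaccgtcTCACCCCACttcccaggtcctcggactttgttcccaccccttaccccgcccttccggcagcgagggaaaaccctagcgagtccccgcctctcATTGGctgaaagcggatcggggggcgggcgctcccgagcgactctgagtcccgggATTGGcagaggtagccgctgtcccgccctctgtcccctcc
Mlxipl: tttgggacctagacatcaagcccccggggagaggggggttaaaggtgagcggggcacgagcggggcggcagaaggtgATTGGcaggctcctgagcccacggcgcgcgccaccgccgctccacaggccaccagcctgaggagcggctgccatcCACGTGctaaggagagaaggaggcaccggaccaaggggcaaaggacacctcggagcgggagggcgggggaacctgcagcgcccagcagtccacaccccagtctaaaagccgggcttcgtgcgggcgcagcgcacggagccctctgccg
Thrsp: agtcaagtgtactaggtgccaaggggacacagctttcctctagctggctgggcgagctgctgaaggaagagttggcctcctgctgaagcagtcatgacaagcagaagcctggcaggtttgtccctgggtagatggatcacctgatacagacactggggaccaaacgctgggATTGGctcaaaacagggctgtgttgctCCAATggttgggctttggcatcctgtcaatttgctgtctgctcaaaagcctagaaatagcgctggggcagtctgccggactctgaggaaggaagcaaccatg
The sterol element of Hmgcs1 began at position -137 from its start site, and 4 CCAAT boxes, all read on the other strand, lay in the same window. The window of Mlxipl held an E-box at -98, and that of Thrsp a CCAAT box on each strand, at -79 and -52. The second promoter of Mlxipl, from which no sequence is shown, held the other sterol element.

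Set against GFP hepatocytes, the IL6 group showed opposite tendencies in the parts of the pathway: most lipogenic genes had lower levels and most sterol enzymes had higher ones. With edgeR's quasi-likelihood test and Benjamini-Hochberg adjustment, 7 of the 36 members differed (19.4%), 1 higher and 6 lower, against 25.9% of all 14339 genes tested. In this fit members were thus called no more often than genes in general. The fit shares 1 estimate of spread over all 5 groups. More than 2-fold ratios between the DDC libraries were seen for 72.2% of members, against 2.29% of all genes. The part of that spread in the calls was not tested. Of the 17 members with lipogenic roles, 6 fell and none rose, against 12.2% of all genes called lower. Of the 15 sterol enzymes, 1 rose and none fell, against 13.7% of all genes called higher. The median log2 fold change was -1.01 over the 17 lipogenic members and 0.71 over the 15 sterol enzymes, beside 0.04 over all genes tested. DESeq2 called 11 members, beside 4377 of all genes tested, where edgeR called 3719. A fit of the IL6 and GFP groups alone called 14 members, and the count of all genes in that fit is not given here. Fewer members were called when either GFP library was left out, which leaves 1 library in that group. Calls over all genes were also fewer in every fit that left out 1 library. The median over the lipogenic members was -1.27 without IL6 replicate 3, with 15 of 17 negative and 6 called.

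Thrsp fell the most. It had 11.2, 18 and 2.50 CPM in IL6 libraries, against 603.4 and 1185 CPM in GFP libraries, and the groups were far from overlapping. The log2 fold change was -6.40 ± 1.17 (SE), 84.6-fold lower, with an adjusted p of 0.00215 by edgeR. Without IL6 replicate 3 it was -5.94 ± 1.27, with an edgeR adjusted p of 0.00697. Mlxipl, which encodes the sugar-responsive factor ChREBP, had 74.7, 94.3 and 101.4 CPM in IL6 libraries, against 388.3 and 307.3 CPM in GFP libraries. All 3 IL6 libraries were below both GFP libraries, with a log2 fold change of -1.95 ± 0.34 (edgeR adjusted p = 0.00177), and of -2.05 ± 0.40 without IL6 replicate 3. The third regulator, Srebf1, had 352.2, 267.0 and 74.5 CPM in IL6 libraries, against 511.5 and 269.5 CPM in GFP libraries, and these overlapped (log2 fold change -0.76 ± 0.63, edgeR adjusted p = 0.408).

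Dgat2 gave the smallest adjusted p of the members. It had 230.3, 160.5 and 167.4 CPM in IL6 libraries, against 703.8 and 797.1 CPM in GFP libraries, a 4.03-fold lower level (log2 fold change -2.01 ± 0.27, edgeR adjusted p = 0.000305), and -1.95 ± 0.31 without IL6 replicate 3. The calls of Thrsp, Mlxipl and Dgat2 held in all 10 alternative settings, with the largest adjusted p at 0.0136, 0.0204 and 0.00466. Gpam, the mitochondrial acyltransferase that begins glycerolipid synthesis, was 117.2, 108.4 and 106.5 CPM in IL6 libraries, against 209.3 and 141.2 CPM in GFP libraries, and did not pass the test (log2 fold change -0.66 ± 0.40, edgeR adjusted p = 0.239). Pnpla3 had 1.42, 1.23 and 0.437 CPM in IL6 libraries, against 0.256 and 0.206 CPM in GFP libraries. It was the only one of the 17 lipogenic members with a positive log2 fold change (2.11 ± 1.17), rests on few counts and did not pass the test (edgeR adjusted p = 0.205).

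Among the fatty acid synthesis enzymes, Me1, the cytosolic malic enzyme that supplies NADPH, fell. It had 10.6, 18.4 and 51.5 CPM in IL6 libraries, against 109.5 and 91.9 CPM in GFP libraries (log2 fold change -1.91 ± 0.54, edgeR adjusted p = 0.0219). The IL6 libraries were spread over 4.87-fold, with replicate 3 the highest, and without it the log2 fold change was -2.80 ± 0.45 (edgeR adjusted p = 0.00148). The call was lost when IL6 replicate 1 (adjusted p = 0.0563), IL6 replicate 2 (0.0807), GFP replicate 1 (0.108) or GFP replicate 2 (0.0739) was left out, and when only the IL6 and GFP groups were fitted (0.0544). Acss2, which activates acetate, had 25.2, 33.8 and 20.7 CPM in IL6 libraries, against 98.4 and 89.6 CPM in GFP libraries. These did not overlap, and the edgeR adjusted p was just above the threshold, at 0.0537 (log2 fold change -1.82 ± 0.64), and 0.124 without IL6 replicate 3. Fasn, the fatty acid synthase, had 168.0, 268.2 and 154.8 CPM in IL6 libraries, against 229.6 and 216.3 CPM in GFP libraries, and Acly and Acaca overlapped between the groups in the same way. Acacb, the mitochondrial acetyl-CoA carboxylase, had 12.8, 17.6 and 33.0 CPM in IL6 libraries, against 34.6 and 46.7 CPM in GFP libraries, without passing the test (log2 fold change -0.94 ± 0.54, edgeR adjusted p = 0.22).

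All 5 elongases and desaturases had lower levels in every IL6 library than in either GFP library, and 2 of them passed the test. Non-overlap of this kind, in the lower direction, was seen for 29.2% of all genes. Elovl5, which lengthens polyunsaturated fatty acids, had 180.9, 108.3 and 113.6 CPM in IL6 libraries, against 418.1 and 277.3 CPM in GFP libraries (log2 fold change -1.37 ± 0.34, edgeR adjusted p = 0.0117), and the call was lost without GFP replicate 1 (0.126). Fads2, the delta-6 desaturase, had 155.0, 112.6 and 62.4 CPM in IL6 libraries, against 366.1 and 352.2 CPM in GFP libraries (log2 fold change -1.71 ± 0.44, edgeR adjusted p = 0.0144), and the call was lost without GFP replicate 1 (0.0718) or GFP replicate 2 (0.0629). Scd1 showed the largest spread of any member. It had 678.3, 282.8 and 26.5 CPM in IL6 libraries, a 25.6-fold range, against 2059 and 2360 CPM in GFP libraries, and did not pass the test (log2 fold change -2.75 ± 1.14, edgeR adjusted p = 0.0968). The log2 fold change without IL6 replicate 3 was -1.27 ± 0.39 for Elovl5 (edgeR adjusted p = 0.0351), -1.43 ± 0.45 for Fads2 (0.0388) and -2.21 ± 1.05 for Scd1 (0.15). Elovl6 and Fads1 had log2 fold changes of -1.01 ± 0.68 and -0.86 ± 0.46, with edgeR adjusted p-values of 0.298 and 0.186.

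Of the sterol enzymes, Sqle, the squalene epoxidase and a rate-limiting step of the route, rose. It had 225.5, 278.7 and 112.7 CPM in IL6 libraries, against 45.7 and 66.2 CPM in GFP libraries (log2 fold change 1.88 ± 0.50, edgeR adjusted p = 0.0157). Every IL6 library was above both GFP libraries, and the log2 fold change was 2.17 ± 0.47 without IL6 replicate 3. The call was lost without GFP replicate 1 (adjusted p = 0.135) or GFP replicate 2 (0.0641). Fold changes were positive for 14 of the 15 sterol enzymes, and for 7 of them the libraries did not overlap, against 31.5% of all genes without overlap in that direction. Hmgcs1 had 275.9, 618.8 and 247.4 CPM in IL6 libraries, against 107.2 and 126.3 CPM in GFP libraries, with an edgeR adjusted p of 0.0615 (log2 fold change 1.71 ± 0.62). Mvd, the mevalonate diphosphate decarboxylase, had 20.9, 48.8 and 21.0 CPM in IL6 libraries, against 11.0 and 7.91 CPM in GFP libraries (log2 fold change 1.68 ± 0.65, edgeR adjusted p = 0.0762). The one negative value was that of Sc5d, the lathosterol oxidase, at -0.34 ± 0.52. IL6 replicate 2 was the highest of the 3 IL6 libraries for 14 of the 15 sterol enzymes, and replicate 3 the lowest for 12. Without replicate 3 the median over the sterol enzymes was 0.98, and Mvk, the mevalonate kinase, passed the test as well (1.02 ± 0.32, edgeR adjusted p = 0.0374), so that 8 members were called in place of 7. Hmgcs1 then had a log2 fold change of 1.93 ± 0.65 (edgeR adjusted p = 0.0513).

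The 4 genes of sterol sensing and transport did not move together. Srebf2 had 108.2, 115.0 and 93.0 CPM in IL6 libraries, against 54.0 and 55.7 CPM in GFP libraries, with an edgeR adjusted p of 0.0539 (log2 fold change 0.94 ± 0.33). Stard4, a cytosolic carrier of cholesterol, had 80.8, 116.0 and 47.2 CPM in IL6 libraries, against 159.7 and 170.0 CPM in GFP libraries (log2 fold change -1.02 ± 0.44, edgeR adjusted p = 0.11). Insig1, which retains SREBP in the endoplasmic reticulum, had a log2 fold change of -0.81 ± 0.66, and Insig2, its homologue, of 0.39 ± 0.40. Neither passed the test.

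Other measures moved with the IL6 group. Of the 14 hepatocyte markers, 9 were called lower in IL6 than in GFP hepatocytes, with a median log2 fold change of -1.88. The summed level of the 6 detected cholangiocyte markers was 2230 to 10776 CPM in IL6 libraries, against 11.0 to 18.4 CPM in GFP libraries, where Krt7, Epcam and Tspan8 were at 0. Of the 5 of these markers that were tested, 4 were called higher. Kupffer cell markers summed to 76.7 to 176 CPM in IL6 libraries, against 30.7 to 41.1 CPM in GFP libraries, with 4 of 10 called higher, and mitochondrially encoded genes took 2.05% to 2.76% of counts in IL6 libraries, against 5.56% and 5.6% in GFP libraries. The part of these in the values of the members was not tested, and in bulk samples fewer cells of a type and less RNA per cell cannot be told apart.

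**Figure D2:**
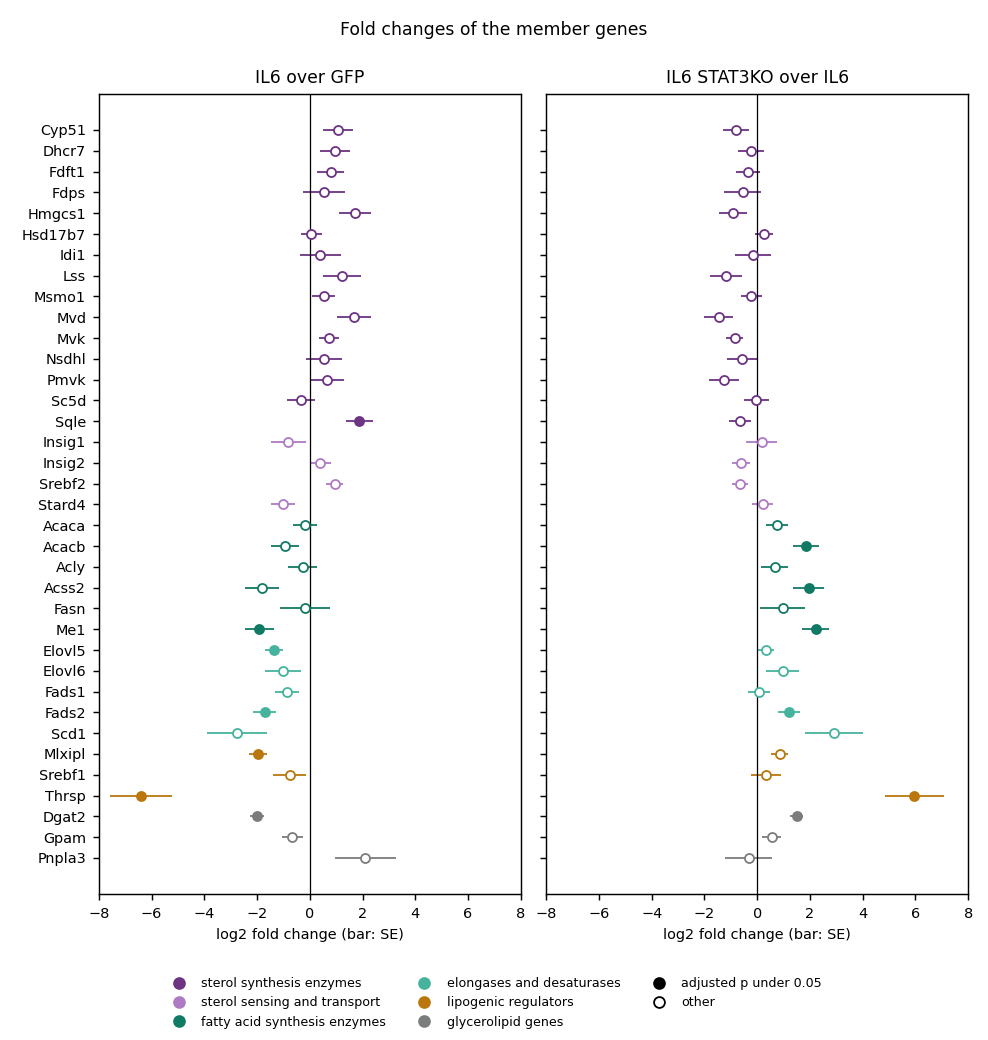
Points give the log2 fold change of each member with its SE, on the left for IL6 over GFP hepatocytes and on the right for IL6 STAT3KO over IL6 hepatocytes, with colours for roles and filled points for an edgeR adjusted p under 0.05. On the left 6 filled points lie below 0 and only Sqle above, and on the right all 6 filled points lie above 0, with Thrsp farthest from 0 on both sides.

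Comparing IL6 STAT3KO with IL6 hepatocytes asks how levels under the IL6 plasmid differ when Stat3 is deleted. Several lipogenic genes were higher in IL6 STAT3KO hepatocytes: 6 of the 36 members passed the test (16.7%), all higher, against 26.4% of all genes called in either direction and 13% called higher. All 6 were among the 17 lipogenic members, of which 16 had a positive log2 fold change, with a median of 0.96 beside 0 over all genes. For 10 of the 17 every IL6 STAT3KO library was above every IL6 library, which was so for 22% of all genes. The sterol enzymes had no calls, and 14 of 15 had a negative log2 fold change, with a median of -0.56. The medians without IL6 replicate 3 were 0.84 over the lipogenic members, with 14 of 17 positive and 4 called, and -0.91 over the sterol enzymes, with 1 called lower. This comparison and that of IL6 with GFP hepatocytes share the 3 IL6 libraries, so a low value there moves both. A fit of these 2 groups alone called 10 members, and 3 were called without IL6 replicate 2. Over all genes, 3781 were called with all libraries and 2559 to 3598 when 1 library was left out.

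Thrsp stood at 805.9, 701.0 and 458.9 CPM in IL6 STAT3KO libraries, against 11.2, 18 and 2.50 CPM in IL6 libraries. No libraries overlapped, and 2 of the 3 IL6 STAT3KO libraries lay within the range of the GFP libraries. The level in IL6 STAT3KO hepatocytes was 62-fold that in IL6 hepatocytes (log2 fold change 5.95 ± 1.12, edgeR adjusted p = 0.00226). Dgat2 stood at 631.9, 463.1 and 480.2 CPM in IL6 STAT3KO libraries, against 230.3, 160.5 and 167.4 CPM in IL6 libraries (log2 fold change 1.5 ± 0.25, edgeR adjusted p = 0.000967). Me1 stood at 151.8, 81.8 and 139.3 CPM in IL6 STAT3KO libraries, against 10.6, 18.4 and 51.5 CPM in IL6 libraries (log2 fold change 2.21 ± 0.51, edgeR adjusted p = 0.00738). For Thrsp, Dgat2 and Me1 no libraries overlapped and the call held in all 11 alternative settings. Without IL6 replicate 3 their log2 fold changes were 5.50 ± 1.21, 1.44 ± 0.29 and 3.11 ± 0.44.

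The other 3 calls were less stable. Acacb, at 62.0, 95.8 and 72.1 CPM in IL6 STAT3KO libraries, against 12.8, 17.6 and 33.0 CPM in IL6 libraries, rose by 1.86 ± 0.50 on the log2 scale (edgeR adjusted p = 0.0171), and the call was lost without IL6 replicate 1 (0.0731) or IL6 replicate 2 (0.0696). Acss2, at 121.1, 79.0 and 107.1 CPM in IL6 STAT3KO libraries, against 25.2, 33.8 and 20.7 CPM in IL6 libraries, rose by 1.95 ± 0.60 (edgeR adjusted p = 0.0303). Its call was lost without any 1 of the 3 IL6 libraries or without IL6 STAT3KO replicate 1 or 3, with adjusted p-values from 0.0598 to 0.0905. Fads2, at 209.8, 235.7 and 312.3 CPM in IL6 STAT3KO libraries, against 155.0, 112.6 and 62.4 CPM in IL6 libraries, rose by 1.20 ± 0.41 (edgeR adjusted p = 0.0463). Its call was lost without IL6 replicate 2 or 3 or without any 1 of the IL6 STAT3KO libraries, with adjusted p-values from 0.0649 to 0.148. Without IL6 replicate 3, 5 members were called: Acacb, Me1, Thrsp and Dgat2 higher and Mvk lower (-1.16 ± 0.28, edgeR adjusted p = 0.0116).

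Several genes with wide differences in their means stayed short of the threshold. Scd1 had 1324, 3739 and 2367 CPM in IL6 STAT3KO libraries, against 678.3, 282.8 and 26.5 CPM in IL6 libraries, without overlap (log2 fold change 2.91 ± 1.09, edgeR adjusted p = 0.0689, and 0.11 without IL6 replicate 3). Mlxipl had 242.5, 108.5 and 136.8 CPM in IL6 STAT3KO libraries, against 74.7, 94.3 and 101.4 CPM in IL6 libraries (log2 fold change 0.85 ± 0.31, edgeR adjusted p = 0.0641, and 0.0787 without IL6 replicate 3). Srebf1 differed by 0.34 ± 0.57 and Fads1 by 0.08 ± 0.42 on the log2 scale, with overlapping libraries. Among the sterol enzymes the lowest values were those of Mvd (-1.46 ± 0.56, edgeR adjusted p = 0.0741), Pmvk, the phosphomevalonate kinase (-1.26 ± 0.56, 0.117), and Lss, the lanosterol synthase (-1.18 ± 0.62, 0.19). Hmgcs1 had 167.1, 228.4 and 207.9 CPM in IL6 STAT3KO libraries, against 275.9, 618.8 and 247.4 CPM in IL6 libraries (log2 fold change -0.92 ± 0.53, edgeR adjusted p = 0.227). For Mvd and Hmgcs1 the edgeR adjusted p was 0.0687 and 0.169 without IL6 replicate 3.

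Set against GFP hepatocytes, 0 of the 36 members differed in IL6 STAT3KO hepatocytes by edgeR, against 3.12% of all genes, with 3 members at an unadjusted p under 0.05, 2 called by DESeq2 and 1 called without IL6 STAT3KO replicate 1. Of all genes, 2.26% were called higher and 0.865% lower. The libraries of 8 members lay apart with higher levels and those of 9 with lower levels, against 22.2% and 22.4% of all genes. The log2 fold change of Thrsp was -0.45 ± 1.00 there, that of Me1 0.30 ± 0.55 and that of Scd1 0.16 ± 1.14. Mlxipl was below both GFP libraries in all 3 IL6 STAT3KO libraries (log2 fold change -1.10 ± 0.34, edgeR adjusted p = 0.11), as were Dgat2 (-0.52 ± 0.27, 0.32) and Elovl5 (-1.04 ± 0.34, 0.122). A p above the threshold does not show that these levels were alike. In IL6 STAT3KO hepatocytes the summed cholangiocyte markers were 23.3 to 65.4 CPM, and 7 of 14 hepatocyte markers were called higher than in IL6 hepatocytes. Macrophage and monocyte markers summed to 957 to 1878 CPM in IL6 STAT3KO libraries, against 174 to 298 CPM in IL6 libraries, but the 11 markers did not share a direction. Only Cd74, an antigen presentation gene that is not restricted to macrophages, was called higher, at 1221, 831 and 1814 CPM in IL6 STAT3KO libraries, against 24.6, 12.2 and 9.05 CPM in IL6 libraries. Cd14 was called lower, at 1.24, 4.22 and 1.81 CPM in IL6 STAT3KO libraries, against 152, 236 and 126 CPM in IL6 libraries. The median log2 fold change of the list was 0.47, with 8 of 11 positive. Mitochondrially encoded genes took 5.92%, 4.83% and 4.16% of counts in IL6 STAT3KO libraries, against 2.33%, 2.05% and 2.76% in IL6 libraries, without overlap. The part of these in the values of the members was not tested.

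**Figure D3:**
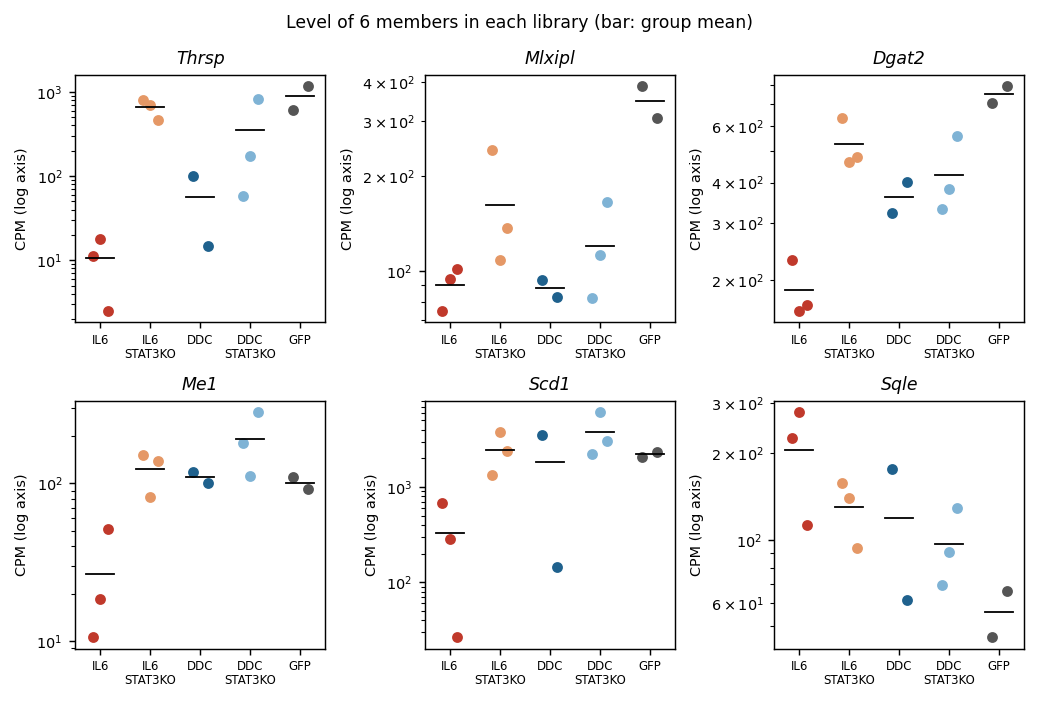
Points give the CPM (log axis) of 6 members in each library, with groups from left to right and a bar at each group mean. Thrsp, Dgat2 and Me1 are low in all 3 IL6 libraries, Mlxipl is below both GFP libraries in every other library, Scd1 spreads over a wide range in the IL6 and DDC groups, and Sqle is highest in the IL6 group.

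After 1 week of DDC diet, 5 of the 36 members differed from GFP hepatocytes (13.9%), against 18.6% of all genes, of which 10.4% were called higher and 8.29% lower. Mlxipl, Thrsp and Dgat2 fell, and Hmgcs1 and Pnpla3 rose. Mlxipl had 93.7 and 82.7 CPM in DDC libraries, against 388.3 and 307.3 CPM in GFP libraries (log2 fold change -1.98 ± 0.39, edgeR adjusted p = 0.00708), and lost its call only without DDC replicate 2 (0.0632) among the 9 alternatives. All 4 other groups had lower means of Mlxipl than GFP hepatocytes, and IL6 and DDC hepatocytes differed by 0.03 ± 0.35 on the log2 scale (edgeR adjusted p = 0.968). Thrsp had 99.1 and 14.8 CPM in DDC libraries, against 603.4 and 1185 CPM in GFP libraries (log2 fold change -3.97 ± 1.24, edgeR adjusted p = 0.0438). Dgat2 had 322.9 and 400.7 CPM in DDC libraries, against 703.8 and 797.1 CPM in GFP libraries (log2 fold change -1.05 ± 0.30, edgeR adjusted p = 0.0309). The calls of both were lost when any 1 of the DDC or GFP libraries was left out, with adjusted p-values from 0.0561 to 0.207 for Thrsp and from 0.0921 to 0.163 for Dgat2.

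Hmgcs1 had 716.9 and 254.4 CPM in DDC libraries, against 107.2 and 126.3 CPM in GFP libraries (log2 fold change 2.06 ± 0.66, edgeR adjusted p = 0.0496). Leaving out any 1 of the 4 libraries ended the call (edgeR adjusted p from 0.0537 to 0.329), and without DDC replicate 1 the log2 fold change was 1.12 ± 0.70. Pnpla3 had 14.5 and 0.891 CPM in DDC libraries, against 0.256 and 0.206 CPM in GFP libraries (log2 fold change 5.01 ± 1.23, edgeR adjusted p = 0.0178). The value came mostly from DDC replicate 1, without which it was 1.91 ± 0.99 (edgeR adjusted p = 0.24), and leaving out either GFP library also ended the call (0.11 and 0.118). The comparisons of IL6, IL6 STAT3KO, DDC and DDC STAT3KO with GFP hepatocytes share the 2 GFP libraries.

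The call of single genes and the direction of the whole set in this comparison depended on the DDC library used. With both, 23 of the 36 members had a positive log2 fold change and 14 of the 15 sterol enzymes did, with a median of 0.65 over these enzymes. Without DDC replicate 1, 29 of 36 members were negative, the sterol enzymes had a median of -0.17 with 4 of 15 positive, and only Mlxipl was called (-2.07 ± 0.54, edgeR adjusted p = 0.0389). Without DDC replicate 2, 30 of 36 were positive, the sterol enzymes had a median of 1.23 with 15 of 15 positive, and Mvd (2.51, edgeR adjusted p = 0.0234) and Pnpla3 (5.92, 0.00695) were called. Leaving out either GFP library left 1 call. Beside these values, 7 of 14 hepatocyte markers were called lower and 8 of 10 Kupffer cell markers higher in DDC than in GFP hepatocytes, and cholangiocyte markers summed to 534 and 596 CPM in DDC libraries, against 18.4 and 11.0 CPM in GFP libraries. Their part in the values of the members was not tested.

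The DDC libraries differed from each other in nearly the whole gene set. DDC replicate 1 was higher than replicate 2 for 35 of the 36 members, with Dgat2 the exception at a ratio of 0.806, and the median ratio was 2.87. Over all 14339 genes the median ratio was 0.99. More than 2-fold ratios were seen for 26 members (72.2%), against 2.29% of all genes. Scd1 had 3487 CPM in replicate 1 and 145.9 CPM in replicate 2, a ratio of 23.9. Fasn had 1031 and 135.0 CPM, a ratio of 7.64, and Insig1, itself a target of SREBP, had 476.8 and 65.5 CPM, a ratio of 7.28. The sums over the sterol enzymes were 2802 and 996.9 CPM. Hepatocyte markers summed to 98219 and 82373 CPM in the same libraries and Kupffer cell markers to 287 and 462 CPM, with mitochondrial shares of 5.48% and 5.21%, and their part in the difference was not tested. The GFP libraries were closer to each other, with a median ratio of the higher to the lower library of 1.18 over the members.

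The DDC STAT3KO libraries were also ordered alike for most members. Replicate 3 was the highest for 33 of the 36 and replicate 1 the lowest for 32, with a median ratio of highest to lowest of 2.99. Fasn had 106.4, 892.8 and 2198 CPM in replicates 1, 2 and 3, a 20.7-fold range, and Thrsp had 57.3, 174.7 and 836.1 CPM, a 14.6-fold range. Idi1, the isopentenyl diphosphate isomerase, had 37.2, 60.3 and 347.5 CPM. The sterol enzymes summed to 856.3, 1122 and 3036 CPM in the same order. Replicate 1 had a mitochondrial share of 2.03%, against 5.38% and 5.26% in the other DDC STAT3KO libraries, and replicate 3 had lower sums of Kupffer cell markers (56.4 CPM, against 344 and 427) and cholangiocyte markers (16.0 CPM, against 272 and 256). Their part in the order of the libraries was not tested.

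**Figure D4:**
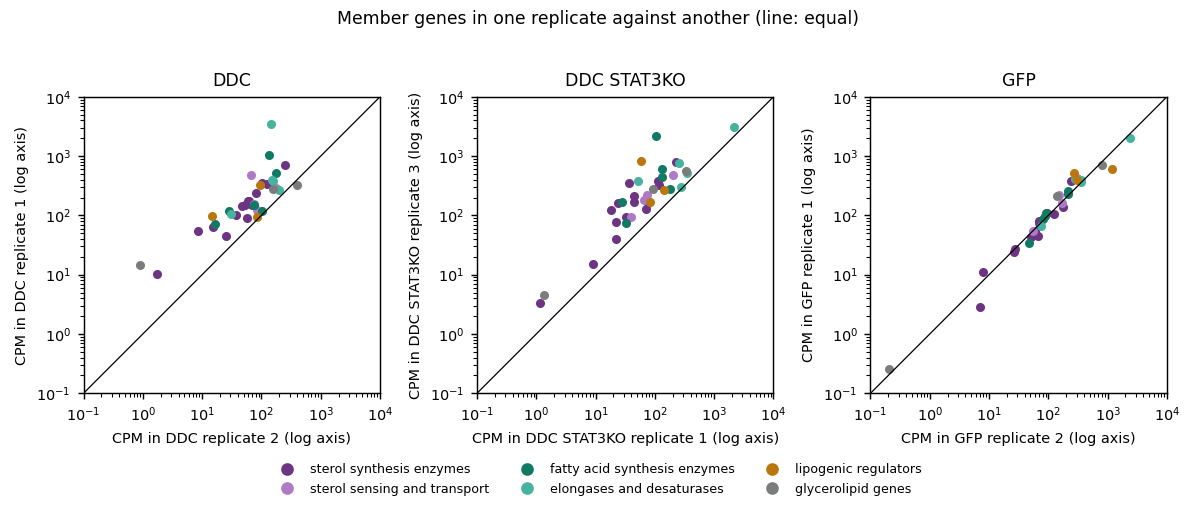
Each point is a member, coloured by role, with its CPM in one replicate against another on log axes and a line at equal values, for DDC replicates 1 and 2, DDC STAT3KO replicates 3 and 1, and GFP replicates 1 and 2. In the DDC panel 35 of the 36 points lie above the line, in the DDC STAT3KO panel every point does, and in the GFP panel the points follow the line.

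Between DDC STAT3KO and DDC hepatocytes, which asks about Stat3 under the diet with only the cargo of the virus differing, 0 of 36 members and 0% of all genes were called by edgeR. At an unadjusted p under 0.05 there were 2 members and 803 genes (5.6% of those tested), and DESeq2 called 15 genes and 0 members. Thrsp had 57.3, 174.7 and 836.1 CPM in DDC STAT3KO libraries, against 99.1 and 14.8 CPM in DDC libraries (log2 fold change 2.65 ± 1.12, edgeR adjusted p = 0.853), and Acaca, the cytosolic acetyl-CoA carboxylase, had 134.3, 189.6 and 447.9 CPM in DDC STAT3KO libraries, against 150.9 and 75.7 CPM in DDC libraries (log2 fold change 1.18 ± 0.47, edgeR adjusted p = 0.853). The libraries of every member overlapped between the groups, while 9.35% of all genes lay apart with higher and 9% with lower levels. The direction of the sterol enzymes rested on single libraries: 3 of the 15 had a positive log2 fold change with all libraries, 15 of 15 without DDC replicate 1 (median 0.71) and 0 of 15 without DDC replicate 2 (median -0.76). Without DDC STAT3KO replicate 1 it was 10 of 15 (median 0.05), and without DDC STAT3KO replicate 3 it was 0 of 15 (median -0.92). The lipogenic members had 15 of 17 positive values with all libraries, 17 without DDC replicate 1 (median 1.47) and 9 without DDC replicate 2 (median 0.04). Without DDC STAT3KO replicate 1 they had 15 positive values (median 0.62), and without DDC STAT3KO replicate 3 they had 8 positive and 8 negative (median 0.00).

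**Figure D5:**
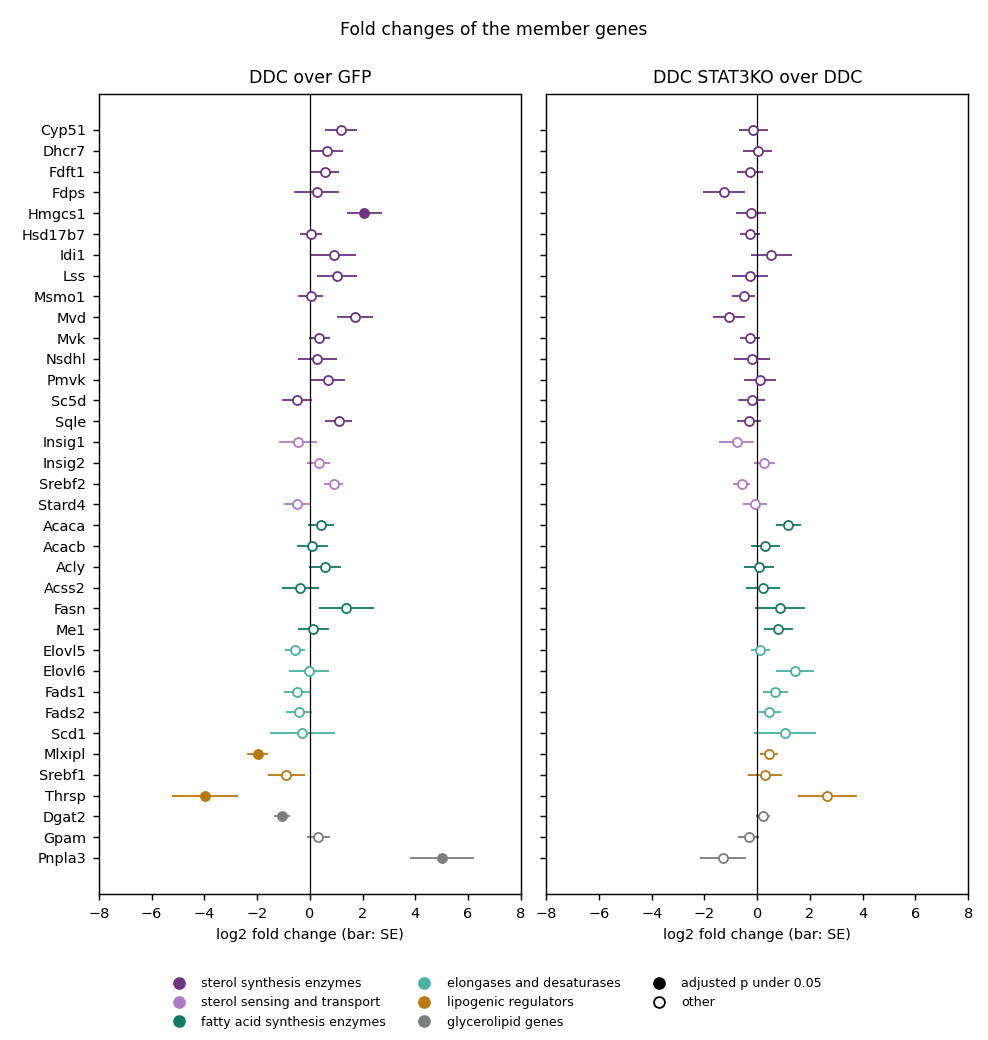
Points give the log2 fold change of each member with its SE, on the left for DDC over GFP hepatocytes and on the right for DDC STAT3KO over DDC hepatocytes, with colours for roles and filled points for an edgeR adjusted p under 0.05. On the left Hmgcs1 and Pnpla3 are filled above 0 and Mlxipl, Thrsp and Dgat2 below 0, and on the right no point is filled.

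Against GFP hepatocytes, 3 of the 36 members differed in DDC STAT3KO hepatocytes (8.33%), against 15.9% of all genes, of which 8.5% were called higher and 7.39% lower. The libraries of 6 members lay apart with higher levels and those of 3 with lower levels, against 22.3% and 22.7% of all genes. Mlxipl fell again, at 82.1, 112.6 and 166.4 CPM in DDC STAT3KO libraries, against 388.3 and 307.3 CPM in GFP libraries (log2 fold change -1.53 ± 0.34, edgeR adjusted p = 0.013), and lost its call without GFP replicate 1 (0.106) or GFP replicate 2 (0.052). Acaca rose, at 134.3, 189.6 and 447.9 CPM in DDC STAT3KO libraries, against 88.5 and 80.3 CPM in GFP libraries (log2 fold change 1.61 ± 0.48, edgeR adjusted p = 0.0412). Without DDC STAT3KO replicate 3 its log2 fold change was 0.94 (adjusted p = 0.0741), and the call was also lost without DDC STAT3KO replicate 2 (0.0511) or without either GFP library (0.182 and 0.209), and when only these 2 groups were fitted (0.112). Pnpla3 rose, at 1.36, 3.54 and 4.57 CPM in DDC STAT3KO libraries, against 0.256 and 0.206 CPM in GFP libraries (log2 fold change 3.72 ± 1.17, edgeR adjusted p = 0.0495). Its call was lost when any 1 of these 5 libraries was left out, with adjusted p-values from 0.0508 to 0.229. Without GFP replicate 1 or GFP replicate 2 no member was called in this comparison, and 1 was called without DDC STAT3KO replicate 2. Beside these values, 5 of 14 hepatocyte markers were called lower and 8 of 10 Kupffer cell, 7 of 11 macrophage and monocyte and 3 of 5 tested cholangiocyte markers higher in DDC STAT3KO than in GFP hepatocytes. Macrophage and monocyte markers summed to 177, 298 and 52.5 CPM in DDC STAT3KO libraries, against 18 and 32.2 CPM in GFP libraries. The cholangiocyte sum of DDC STAT3KO replicate 3, at 16.0 CPM, lay within the range of the GFP libraries. Their part in the values of the members was not tested.

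The IL6 and DDC groups differed from each other in 2 of the 36 members (5.56%), both lower in IL6, against 11.6% of all genes called in either direction, 6.03% higher and 5.55% lower. Genotype, virus, injection and diet all differed between these groups, so their effects cannot be told apart. The libraries of 4 members lay apart with lower levels and of 0 with higher levels, against 25.6% and 24% of all genes. Me1 had 10.6, 18.4 and 51.5 CPM in IL6 libraries, against 118.6 and 101.3 CPM in DDC libraries (log2 fold change -2.03 ± 0.54, edgeR adjusted p = 0.0304), and Dgat2 had 230.3, 160.5 and 167.4 CPM in IL6 libraries, against 322.9 and 400.7 CPM in DDC libraries (log2 fold change -0.96 ± 0.27, edgeR adjusted p = 0.0366). The call of Me1 was lost without IL6 replicate 1 (0.0754) or 2 (0.117) or either DDC library (0.129 and 0.0995), and that of Dgat2 without IL6 replicate 2 (0.137) or 3 (0.0879) or either DDC library (0.0889 and 0.235). Me1 kept its call without IL6 replicate 3 (-2.91 ± 0.45, edgeR adjusted p = 0.00213).

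Whether the difference between the STAT3KO group and its comparison group was the same under the IL6 plasmid and under the DDC diet was tested as an interaction. The IL6 pair also differed in genotype, virus and Il6 level and the DDC pair in the cargo of the virus alone, so the roles of these cannot be told apart. Of the 36 members, only Dgat2 passed (2.78%, against 8.28% of all genes, 4.2% higher and 4.08% lower): it was higher in IL6 STAT3KO than in IL6 hepatocytes by 1.5 ± 0.25 and in DDC STAT3KO than in DDC hepatocytes by 0.23 ± 0.27 on the log2 scale, a difference of 1.27 ± 0.36 with an edgeR adjusted p of 0.05 after rounding, just under the threshold. It was called in 4 of 15 alternative settings, with adjusted p-values from 0.00616 to 0.187. The corresponding difference was 3.31 ± 1.37 for Thrsp (edgeR adjusted p = 0.164) and 1.41 ± 0.73 for Me1 (0.266), and neither passed. Without IL6 replicate 3 Me1 was called (2.31 ± 0.55, edgeR adjusted p = 0.0238) and Dgat2 was not (1.21 ± 0.39, 0.0744).

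Genes of neighbouring steps were examined in 5 lists of genes that are not members. Of 24 other genes of fatty acid supply and elongation, 7 rose and 7 fell in IL6 against GFP hepatocytes, beside 13.7% and 12.2% of all genes, and the list median was -0.27. Leaving out IL6 replicate 3 left 7 higher and 4 lower. Acsl1, a long-chain acyl-CoA synthetase, averaged 140 ± 91.7 CPM in IL6 hepatocytes, against 1574 ± 260 CPM in GFP hepatocytes (log2 fold change -3.49 ± 0.51, edgeR adjusted p = 0.000539). Pklr, the liver pyruvate kinase and a known target of ChREBP, averaged 36.1 ± 3.23 CPM in IL6 hepatocytes, against 161 ± 14.6 CPM in GFP hepatocytes (-2.16 ± 0.28, 0.000237). Both were higher in IL6 STAT3KO than in IL6 hepatocytes, Acsl1 at 1018 ± 145 CPM (2.86 ± 0.47, 0.000969) and Pklr at 194 ± 37.0 CPM (2.42 ± 0.26, 5.34e-05). Of the 24 genes, 5 were called higher and 3 lower in that comparison, beside 13% and 13.4% of all genes. Without IL6 replicate 3 it was 4 and 2. The NADPH-producing enzymes did not share one direction: beside the fall of Me1, the pentose phosphate enzymes Pgd and G6pdx rose in IL6 hepatocytes, Pgd to 124 ± 20.6 CPM, against 33.9 ± 3.01 CPM in GFP hepatocytes (1.87 ± 0.33, 0.00177), and G6pdx to 12.5 ± 1.74 CPM, against 1.78 ± 0.472 CPM in GFP hepatocytes (2.80 ± 0.50, 0.00187). Pgd was also higher than in GFP hepatocytes in DDC hepatocytes, at 181 ± 1.27 CPM (2.41 ± 0.35, 0.00189), and in IL6 STAT3KO hepatocytes, at 92.2 ± 6.76 CPM (1.44 ± 0.32, 0.0325). The same held in DDC STAT3KO hepatocytes, at 209 ± 101 CPM (2.63 ± 0.34, edgeR adjusted p = 0.000957). G6pdx was higher in DDC than in GFP hepatocytes as well, at 9.58 ± 0.195 CPM (2.42 ± 0.52, edgeR adjusted p = 0.00963).

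Of 23 glycerolipid and lipid droplet genes, 4 rose and 4 fell in IL6 against GFP hepatocytes, beside 13.7% and 12.2% of all genes, and without IL6 replicate 3 it was 4 and 8. Between IL6 STAT3KO and IL6 hepatocytes 4 were called higher and 4 lower, beside 13% and 13.4% of all genes. Without IL6 replicate 3 it was 6 and 4. Gpat4, an acyltransferase of the endoplasmic reticulum that acts on the route that Dgat2 completes, averaged 75.4 ± 8.77 CPM in IL6 hepatocytes, against 272 ± 69.2 CPM in GFP hepatocytes (log2 fold change -1.85 ± 0.24, edgeR adjusted p = 0.000257), and was higher in IL6 STAT3KO than in IL6 hepatocytes, at 195 ± 40.1 CPM (1.37 ± 0.22, 0.000835). Of 13 tested genes of sterol esterification, uptake and efflux, 2 rose and 2 fell in IL6 against GFP hepatocytes, beside 13.7% and 12.2% of all genes. Between IL6 STAT3KO and IL6 hepatocytes 2 were called higher and 3 lower, beside 13% and 13.4%, and without IL6 replicate 3 it was 3 and 3. Abcg5 and Abcg8, which together form the exporter of sterols into bile, fell, Abcg8 to 31.4 ± 12.4 CPM in IL6 hepatocytes, against 176 ± 28.8 CPM in GFP hepatocytes (-2.48 ± 0.45, 0.00201), and Abcg5 to 40.3 ± 15.5 CPM, against 115 ± 27.6 CPM in GFP hepatocytes (-1.51 ± 0.30, 0.00366). Abca1, which loads cholesterol onto apolipoprotein A-I, rose to 682 ± 75.6 CPM in IL6 hepatocytes, against 244 ± 71.8 CPM in GFP hepatocytes (1.48 ± 0.30, 0.00356). All 3 transporters differed the other way between IL6 STAT3KO and IL6 hepatocytes, at 195 ± 45.5 CPM for Abcg8, 127 ± 27.9 CPM for Abcg5 and 312 ± 24.0 CPM for Abca1 in IL6 STAT3KO hepatocytes, with edgeR adjusted p-values of 0.000818, 0.00118 and 0.00654.

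Of 15 genes of SREBP processing and LXR signalling, 2 rose and 2 fell in IL6 against GFP hepatocytes, beside 13.7% and 12.2% of all genes, and without IL6 replicate 3 it was 1 and 2. Scap, which escorts SREBP out of the endoplasmic reticulum, averaged 71.4 ± 1.38 CPM in IL6 hepatocytes, against 121 ± 11.0 CPM in GFP hepatocytes (log2 fold change -0.76 ± 0.21, edgeR adjusted p = 0.0186), and Mbtps2, a protease that releases SREBP, averaged 17.6 ± 3.06 CPM in IL6 hepatocytes, against 11.2 ± 1.87 CPM in GFP hepatocytes (0.65 ± 0.19, 0.0273). Of 12 tested other genes of sterol synthesis, 0 rose and 2 fell, Cyb5r3 and Por, which pass electrons to many enzymes of the endoplasmic reticulum, beside the same shares of all genes. Without IL6 replicate 3 neither was called (edgeR adjusted p = 0.0573 and 0.0585), and 1 other gene of that list was called higher. The log2 fold changes in IL6 against GFP hepatocytes without IL6 replicate 3 were -4.18 ± 0.47 for Acsl1, -2.21 ± 0.33 for Pklr, 1.73 ± 0.35 for Pgd, 2.90 ± 0.53 for G6pdx and -1.94 ± 0.28 for Gpat4. They were -2.32 ± 0.51 for Abcg8, -1.33 ± 0.32 for Abcg5, 1.39 ± 0.31 for Abca1, -0.77 ± 0.24 for Scap and 0.67 ± 0.21 for Mbtps2, and all 10 kept their calls, with edgeR adjusted p-values up to 0.041. In IL6 STAT3KO against IL6 hepatocytes Acsl1, Pklr, Gpat4, Abcg8, Abcg5 and Abca1 kept theirs as well, with edgeR adjusted p-values up to 0.0199. With all libraries, 1 of the 15 genes of SREBP processing and LXR signalling was called higher and 2 lower in that comparison. Of the 12 other genes of sterol synthesis, 1 was called higher and 0 lower, and the shares of all genes were 13% and 13.4%. Without IL6 replicate 3 the counts were 1 and 2 in the first list and 1 and 1 in the second. In these 5 lists no gene was called between DDC STAT3KO and DDC hepatocytes, as in all 14339 genes (0%).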

How the data were processed

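The authors deposited a table of raw counts per gene for the hepatocyte libraries, from which every value here derives. Per the submitters' processing notes, STAR, HTSeq, DESeq2 and the mm10 build were used, with no version or strand setting given in the sources used here. RNA of the sorted cells was taken up in Trizol and made into TruSeq libraries, per the labels' protocols. The deposited table held 18668 genes, with no gene under a total of 10 counts, plus 1 EGFP row, left out of library sizes and tests. Symbols came from GENCODE M21 (GRCm38) and matched 18626 genes.

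The whole table was fitted in R 4.3.3 with edgeR 4.0.16 (TMM, filterByExpr by group, quasi-likelihood F tests, 1 term per group, 8 residual degrees of freedom, 14339 genes), and calls were made at 0.05 on p-values adjusted over all tested genes by the method of Benjamini and Hochberg. All adjusted p-values of single genes are from edgeR unless DESeq2 1.42.0 is named. The groups share 1 estimate of spread because 2 groups have only 2 libraries. CPM used TMM-scaled library sizes, and SD is over libraries. Standard errors are approximate, found by dividing the size of each log2 fold change by the root of its F statistic. Scripts were tested on simulated data. Alternatives were median-of-ratios size factors, no filter on low counts, a replicate block, DESeq2, a fit of the compared groups alone and leaving out each library. Promoter windows came from RefSeq (GRCm38.p6), and copies were sought with BLAST 2.17.0 among GENCODE M21 transcripts.

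The members and the lists were chosen with earlier results of these data known. All 36 members are accounted for, and of each other list up to 4 called genes with the smallest adjusted p in a comparison could be named, some of which are not reported here. Replicate numbers were not found to pair the samples. Immune cell libraries were not used here.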

Additional observations from a re-analysis of the deposited data

Results flagged for a closer look

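Dgat2, the last enzyme of triglyceride synthesis, had a log2 fold change between IL6 STAT3KO and IL6 hepatocytes that differed from the one between DDC STAT3KO and DDC hepatocytes. It stood at 631.9, 463.1 and 480.2 CPM in IL6 STAT3KO libraries, against 230.3, 160.5 and 167.4 CPM in IL6 libraries, and at 331.0, 382.6 and 556.2 CPM in DDC STAT3KO libraries, against 322.9 and 400.7 CPM in DDC libraries. The difference between the 2 log2 fold changes was 1.27 ± 0.36 (SE) by the interaction term of edgeR, and it was positive in all 15 alternative settings but called in 4 of them. The IL6 pair of groups also differed in genotype, virus and Il6 level, and the DDC pair in the cargo of the virus alone, so the roles of these cannot be told apart.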

How the results depend on the processing

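No call of a member changed direction under any alternative: of 3053 results of single genes recomputed, 2931 stayed on their side of the threshold, 77 lost and 45 gained a call. Most of the 3053 were results not called in the main fit, which had no call to lose. The 77 losses therefore belong to the far fewer recomputed results of called members, and make up a larger share of those. Median-of-ratios size factors changed none of 288. In IL6 against GFP hepatocytes (7 members called), DESeq2 called 11, the compared groups alone 14, and leaving out 1 library 3 to 8. In IL6 STAT3KO against IL6 (6), the compared groups alone called 10 and leaving out 1 library 3 to 6. In DDC against GFP (5), leaving out 1 library gave 1 to 2. In IL6 STAT3KO against GFP (0), DESeq2 called 2, the compared groups alone 3 and leaving out 1 library 0 to 1. In DDC STAT3KO against GFP (3), DESeq2 called 5 and leaving out 1 library gave 0 to 3. In IL6 against DDC (2), DESeq2 called 4, the compared groups alone 1 and leaving out 1 library gave 0 to 2. In the interaction (1), no filter on low counts gave 0 and leaving out 1 library gave 0 to 3, and in DDC STAT3KO against DDC (0) it gave 0 to 0. Where a group was left with 1 library, that library was assumed to vary like the other groups. The causes were not tested. Calls over all genes moved as well. DESeq2 called 4377 genes in IL6 against GFP (edgeR 3719) and 4202 in IL6 STAT3KO against IL6 (edgeR 3781). It called 1146 in IL6 STAT3KO against GFP (edgeR 448) and 3161 in DDC STAT3KO against GFP (edgeR 2278). In IL6 against DDC it called 2296 (edgeR 1661). Changes in the counts of members are therefore not particular to them. The count of all genes called in DDC STAT3KO against DDC was 0 by edgeR and 15 by DESeq2, and in DDC against GFP it was 2674 with all libraries and 632 to 1244 without 1 of them. With 2 or 3 libraries a group and replicate levels up to 25.6-fold apart, modest differences in the members could be missed.

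Replicate numbers recur across groups. Of 23 pairs of libraries with the same number, 4 had deviations from the group means that correlated above 0.1, with a range from -0.159 to 0.318, so the numbers were not taken to pair the samples. With the replicate block, 3 members were called in DDC against GFP, 1 in DDC STAT3KO against GFP and 1 in IL6 against DDC, and over single genes 6 calls were lost and 2 gained.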

Other observations

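Over the 13 libraries, the genes outside the set whose log2 CPM followed the mean of the 15 sterol enzymes most closely included Rdh11, a retinol dehydrogenase, with a Pearson's r of 0.787 and 28.1 to 103 CPM, and Acat2, the cytosolic acetoacetyl-CoA thiolase that supplies the mevalonate route, with an r of 0.769 and 38.8 to 112 CPM. Within the set, Lss and Fdft1 followed that mean, of which they are part, with an r of 0.968 and 0.932, and Srebf2, which is not part of it, with an r of 0.813. The 17 lipogenic members ranged widely, with a median r of 0.28: Me1 had an r of -0.317, Dgat2 of -0.307, Thrsp of -0.0359 and Scd1 of 0.0226, against 0.608 for Fasn and 0.645 for Acly. These are descriptions over libraries that share groups. The sterol enzymes summed highest in 1 library of each treated group: 2818 CPM in IL6 replicate 2, 2802 CPM in DDC replicate 1 and 3036 CPM in DDC STAT3KO replicate 3. IL6 replicate 3, which stood apart in other ways, had 1260 CPM, against 1222 and 1164 CPM in GFP libraries. In IL6 STAT3KO libraries the sums were 1594, 1436 and 1274 CPM.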
